A study of Mus musculus with 9 samples.

Results

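The interferon-stimulated genes examined here are 43 named mouse genes that interferon is known to induce, and they were chosen by symbol from the 37816 genes counted in the cerebellum. All 43 symbols had a row in the counts, and all 43 passed the filter on low counts, each with at least 13 reads in every library. RNA came from 9 mice, 3 per group, whose cerebellum was taken at 18 months of age. Every mouse carried a yeast artificial chromosome (YAC) with the human ATXN3 gene on a C57BL/6 background, a model of spinocerebellar ataxia type 3 (SCA3), an inherited disease of ataxin-3. The 15Q mice had a normal tract of 15 CAG repeats in that gene, the 84Q mice an expanded tract of 84, and the 84Q+IGF-1 mice the expanded tract and weekly intraperitoneal injections of 50 mg/kg insulin-like growth factor 1 from 9 to 18 months. The study's methods give weekly injections of PBS for the 15Q and 84Q mice, which the labels call untreated. No mouse was free of the human transgene. The study's methods give the 15Q mice as a gift of another laboratory and the 84Q mice as a line from a repository, so in every comparison with 15Q the transgenic line and its colony cannot be told apart from the length of the repeat.

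Interferons are secreted proteins by which cells warn their neighbours of foreign nucleic acid. Type I interferon binds a receptor whose kinases activate the factor ISGF3, formed by STAT proteins and Irf9, which binds the interferon-stimulated response element (ISRE), while interferon gamma acts through the gamma-activated site (GAS). The induced genes sense RNA, block its translation, degrade it or mark proteins with Isg15, and in the brain microglia, astrocytes and endothelial cells respond strongly.

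The upstream sequences of the members were searched for the letters of these elements. RefSeq promoters (GRCm38.p6) were at hand for 32 of the 43 members, and the 250 bases before each annotated start were searched for the ISRE letters, GAAA on either side of 2 bases of any kind (TTTC on either side of 2 bases on the other strand), and for the GAS letters TTCNNNGAA, which read the same on both strands. The ISRE letters lay in 16 of the 32 members (50%), against 936 of 27025 symbols in the whole promoter table (3.46%). The GAS letters lay in 8 of the 32 (25%), against 8.13% of all symbols, and 5 members held both motifs, 13 neither. The next lines give the stretch around the ISRE letters for 11 of these members, chosen to show members of several families and the near-identical pairs, read 5′ to 3′ along the gene, with the ISRE letters in capitals.
Isg15 (chr4:156200865-156200906, minus strand): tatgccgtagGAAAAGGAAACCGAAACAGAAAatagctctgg
Ifit1 (chr19:34640775-34640823, plus strand): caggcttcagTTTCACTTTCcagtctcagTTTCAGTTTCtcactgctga
Ifit3 (chr19:34583363-34583426, plus strand): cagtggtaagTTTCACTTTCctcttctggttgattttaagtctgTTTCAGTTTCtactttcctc
Ifit3b (chr19:34607759-34607822, plus strand): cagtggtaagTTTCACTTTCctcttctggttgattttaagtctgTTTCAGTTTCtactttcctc
Oas1a (chr5:120907526-120907555, minus strand): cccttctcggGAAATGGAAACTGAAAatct
Bst2 (chr8:71537577-71537618, minus strand): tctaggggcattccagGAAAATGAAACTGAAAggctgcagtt
Irgm1 (chr11:48871425-48871460, minus strand): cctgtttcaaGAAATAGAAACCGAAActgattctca
Irgm2 (chr11:58214892-58214932, plus strand): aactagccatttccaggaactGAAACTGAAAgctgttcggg
Igtp (chr11:58199501-58199541, plus strand): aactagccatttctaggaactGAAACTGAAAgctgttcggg
Gbp2 (chr3:142620594-142620623, plus strand): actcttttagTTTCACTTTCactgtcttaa
Trim30a (chr7:104465210-104465239, minus strand): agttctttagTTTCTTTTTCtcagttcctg

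Isg15 held 3 overlapping matches, so that 1 run of bases carries all of them, and Oas1a, Bst2 and Irgm1 held 2 overlapping matches each. Ifit1, Ifit3 and Ifit3b held 2 separate matches on the reverse strand. The stretches of Ifit3 and Ifit3b were identical over 64 bases, and those of Irgm2 and Igtp differed at 1 of 41 bases (C14T, counted from the 5′ end of the stretch, the Irgm2 base first). All 25 ISRE matches began between 14 and 222 bases before the start, 22 of them within 160 bases. In Bst2 a match to the GAS letters overlapped the ISRE letters, and in Irgm2 and Igtp one lay just before them. These matches describe letters only, since binding was not measured.

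**Figure D1:**
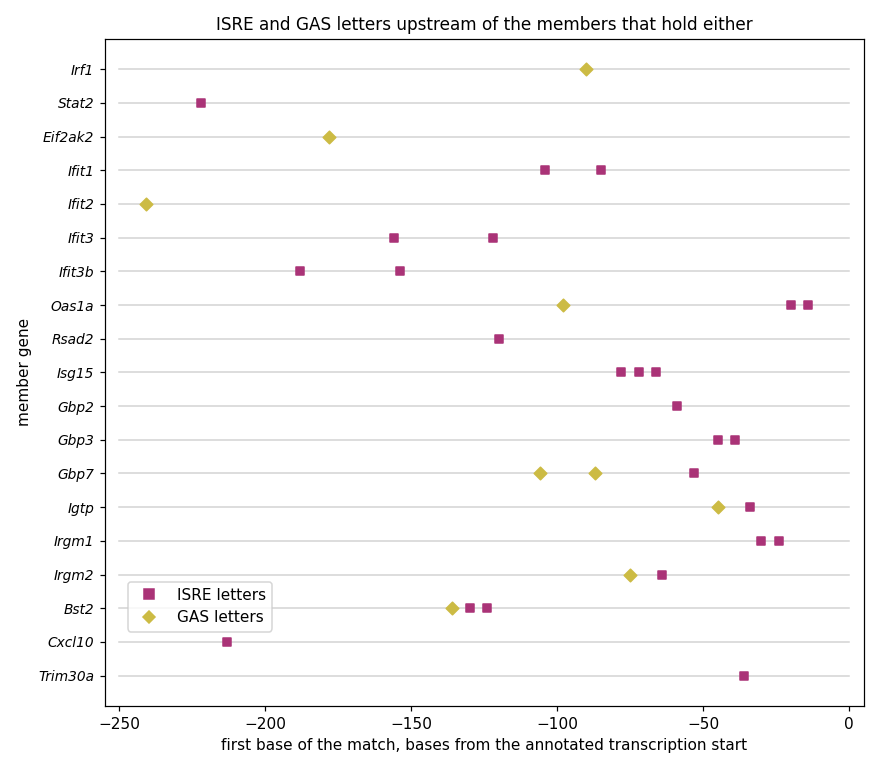
Position of the first base of each match to the ISRE letters (squares) and the GAS letters (diamonds), in bases from the annotated transcription start, for each member that holds either. The 25 ISRE matches lie between 14 and 222 bases before the start, and 22 lie within 160 bases.

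Levels were compared between genes as TPM, the transcript count scaled to exon length and depth, and between libraries as CPM, the count scaled to depth. The members ranged from 0.779 TPM for Ifi44 to 129 TPM for Stat2, with a median of 6.90 TPM. A level of 5 TPM or more was reached by 26 members, 15 lay between 1 and 5 TPM, and Mx1 and Ifi44 lay under 1 TPM. In the order of levels, the ranges over the 9 libraries overlapped in all 42 pairs of neighbours. Within libraries, Ifit3 stood above Lgals3bp, Ifit3b above Irf9 and Herc6 above Mx1 in 9 of 9 libraries, and every other pair of neighbours changed order in at least 1 library. After Stat2 came Ifit3 at 79.5, Lgals3bp at 52.5, Ifi27 at 46.5 and Ifit3b at 40.3 TPM. Stat2 also varied least between libraries.

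**Figure D2:**
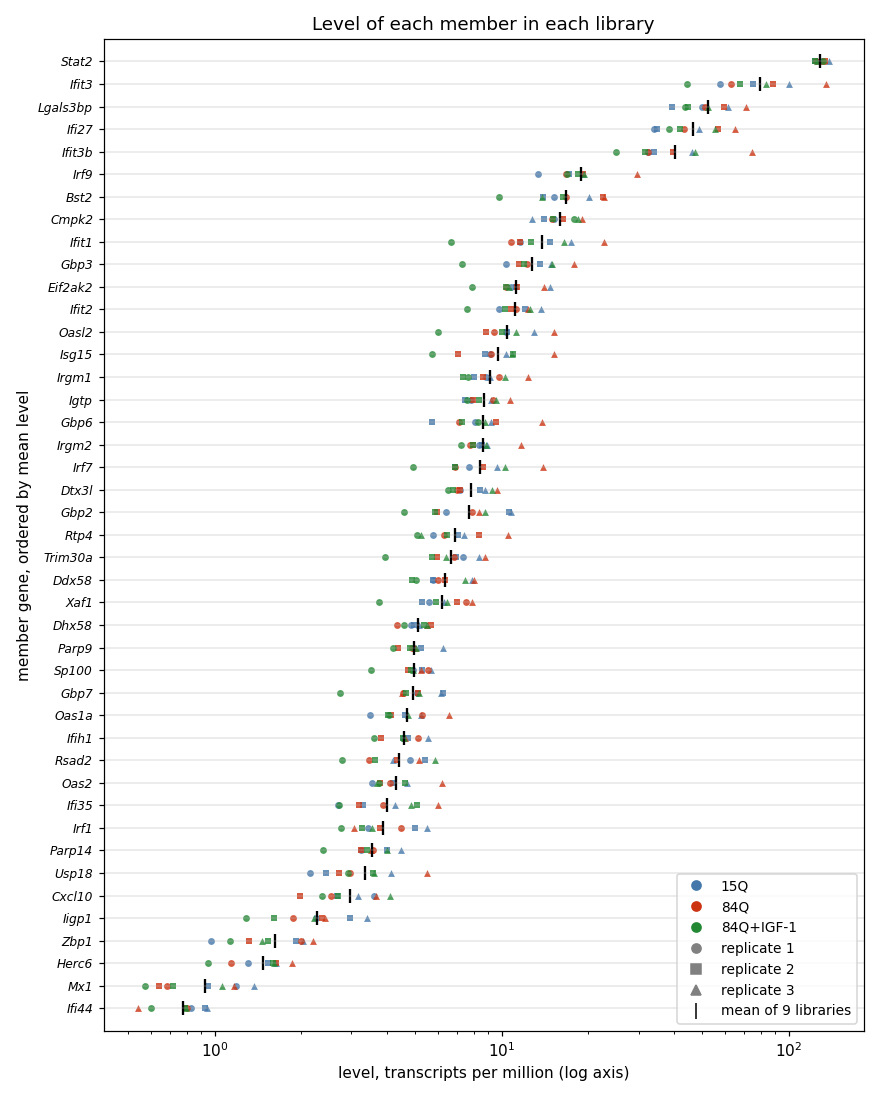
Level of each of the 43 members in each of the 9 libraries, in TPM on a log axis, with the colour giving the group, the shape the replicate and the tick the mean of 9 libraries. Stat2 stands at the top at a mean of 129 TPM with the least spread. By CPM, 84Q replicate 3 (red triangle) was the highest library of 28 members, and by TPM the highest library can differ.

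Depth and tissue differed between libraries. Gene counts summed to between 17482654 in 84Q replicate 3 and 58269196 in 15Q replicate 3. Purkinje cell and granule cell markers were high in all 9 libraries, with summed levels of 6429 to 7182 and 5821 to 6792 CPM. Markers of other tissues were unequal: choroid plexus markers summed to 529 to 1092 CPM in 15Q replicates 1 and 3 and 84Q replicate 2 and to 29.5 to 71.9 CPM elsewhere, and intestinal markers to 25.02 to 40.3 CPM in the 15Q libraries and 4.62 to 6.15 CPM in the others. In the 15Q libraries the intestinal markers Fabp1, Vil1, Alpi, Lgals4, Muc13, Cdh17 and Apoa1, the muscle markers Acta1, Myh1, Myh4, Ckm, Mylpf and Tnnt3, the meningeal markers Lum, Col1a1, Slc22a6, Dcn, Col1a2, Col3a1 and Ogn, and the blood and perivascular markers Cd163, Mrc1, Ms4a7, Ccr2 and Igkc were called higher in at least 1 comparison. No 2 libraries of a group agreed within read-counting noise, which covers counting error only, so none was treated as a copy of another.

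None of the 43 members was called in any comparison. A call required an adjusted p under 0.1 and a change of at least 1.5-fold by the quasi-likelihood test of edgeR, with p adjusted by the Benjamini-Hochberg method over 19353 genes, and every adjusted p below is of this kind unless DESeq2 is named. For 84Q versus 15Q, which sets the line with the expanded repeat beside the line with the normal one, 2.14% of all genes were called, 0.238% higher and 1.9% lower. The shares were 2.25% for 84Q+IGF-1 versus 15Q, 0% for 84Q+IGF-1 versus 84Q, which asks what the treatment changes, and 3.47% for all 6 libraries with the expanded repeat against 15Q. At an unadjusted p under 0.05 stood 4 members in 84Q versus 15Q (19.4% of all genes), 6 in 84Q+IGF-1 versus 15Q (17.7%), 5 in 84Q+IGF-1 versus 84Q (4.68%) and 5 in the pooled comparison (22.7%). DESeq2 called 0 members in 84Q versus 15Q (2.18% of its genes), 1 in 84Q+IGF-1 versus 15Q (2.46%), 0 in 84Q+IGF-1 versus 84Q (0.0159%) and 0 in the pooled comparison (3.34%). The comparisons with 15Q share its 3 libraries.

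The precision allows a bound on most members. The 95% interval of the fold change lay inside a 2-fold change in either direction for 40 of 43 members in 84Q versus 15Q, 40 in 84Q+IGF-1 versus 15Q, 36 in 84Q+IGF-1 versus 84Q and 42 with all 6 expanded libraries. Inside 1.5-fold lay 16, 19, 12 and 24 members, and for the others a 1.5-fold change lay within the interval in at least 1 direction. In the 3 comparisons between groups, standard errors on the log2 scale ran from 0.06 for Stat2 to 0.34 for Mx1.

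**Figure D3:**
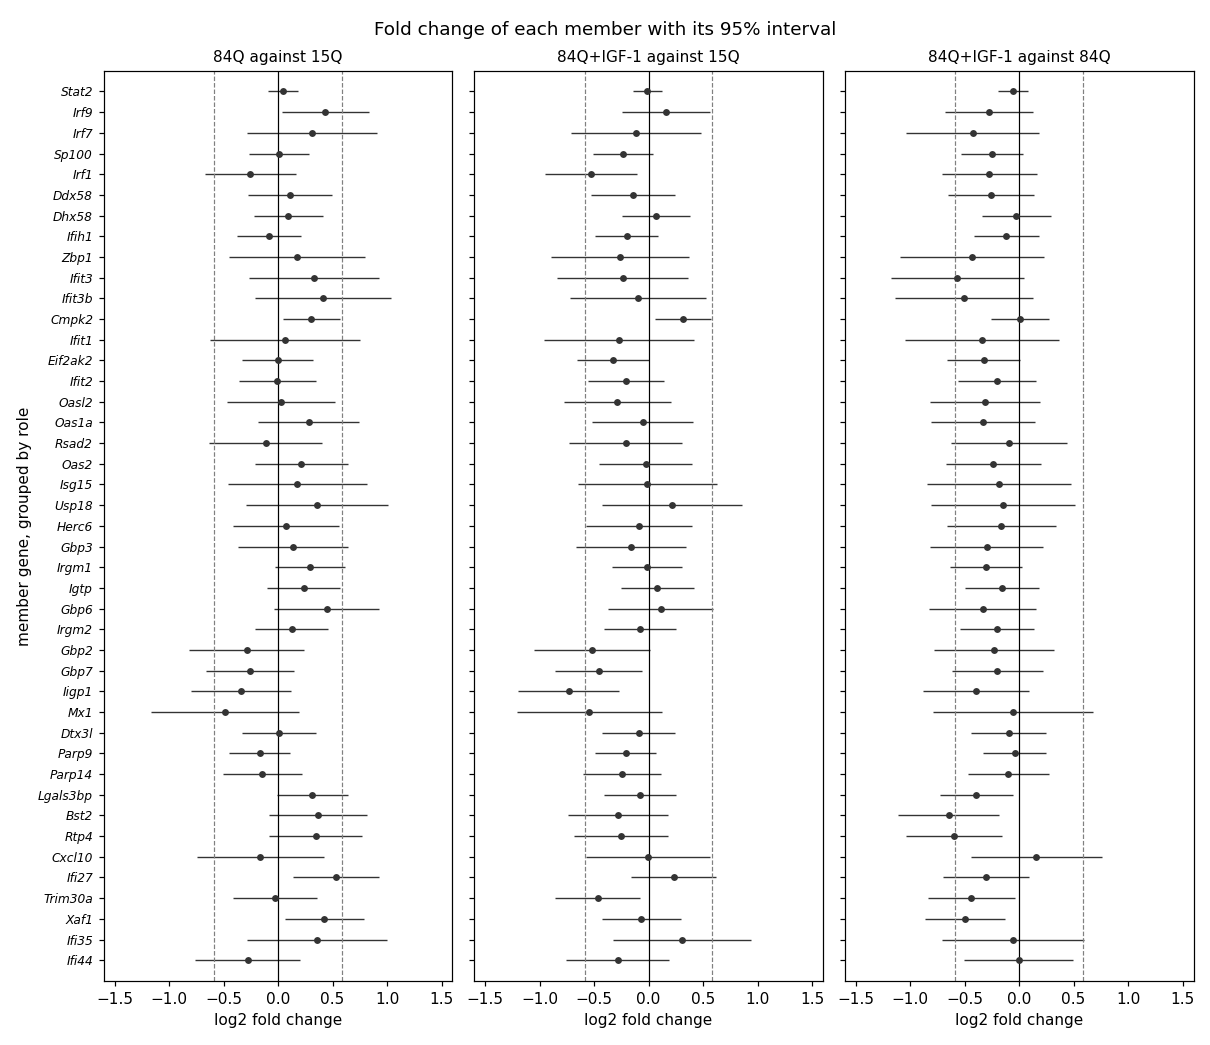
Log2 fold change of each member in 3 comparisons, ordered by role, with points for the estimate and lines for the 95% interval of edgeR's fit to 9 libraries. Dashed lines mark a 1.5-fold change, and no member had both an estimate past them and an adjusted p under 0.1.

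The members shared a pattern across libraries that cut across the groups. In 84Q replicate 3, the highest of the 9 libraries in 28 of 43 members (16.8% of all genes), the median member stood 0.39 log2 units above its mean over the 9 libraries. In 84Q+IGF-1 replicate 1, the lowest library in 25 members (15.2% of all genes), the median member stood 0.36 log2 units below it. The median deviations were -0.10, -0.01 and 0.20 in the 15Q libraries, -0.04, -0.01 and 0.39 in the 84Q libraries and -0.36, -0.07 and 0.10 in the 84Q+IGF-1 libraries, while the median over all genes stayed within 0.01 of 0 in each. Within 15Q the third replicate was the highest in 37 members (35.1% of all genes) and the first the lowest in 29 (37.8%). In every group the median rose from replicate 1 to replicate 3, and the spans of the 3 groups overlapped.

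**Figure D4:**
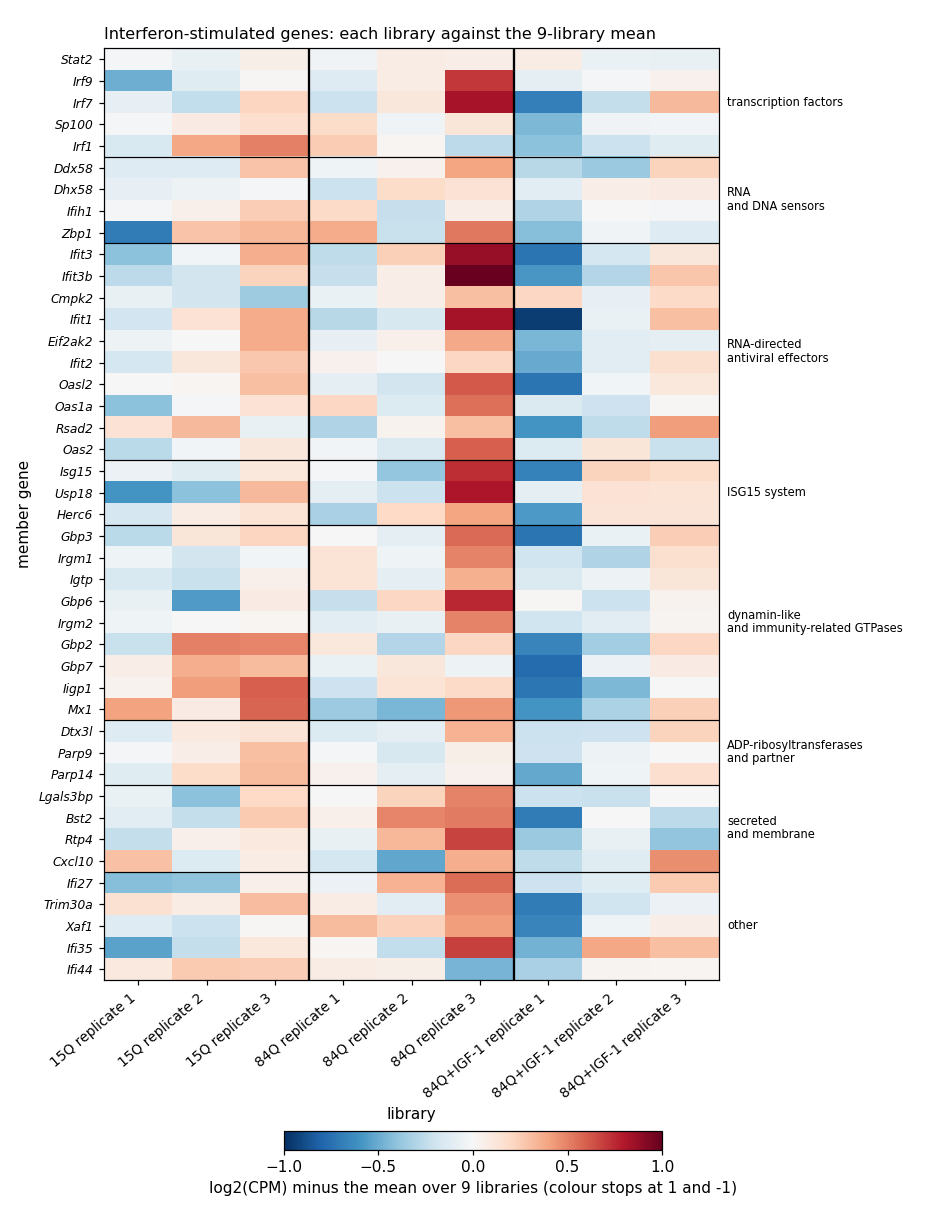
Deviation of each library from the 9-library mean of log2 CPM for the 43 members, grouped by role, with red above and blue below the mean. The column of 84Q replicate 3 is the highest in 28 members and that of 84Q+IGF-1 replicate 1 the lowest in 25.

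The summed level of the members repeated this pattern. It was 529, 543 and 631 CPM in the 15Q libraries, 550, 597 and 747 CPM in the 84Q libraries and 495, 529 and 591 CPM in the 84Q+IGF-1 libraries, in replicate order. The means were 568 ± 55.3, 631 ± 103 and 538 ± 48.6 CPM (SD, n = 3 each), and the groups overlapped. Stat2 alone contributed about 190 CPM, and without it the sums were 377 ± 48.2, 435 ± 97.8 and 349 ± 57.4 CPM. In bulk tissue fewer responding cells and less RNA per cell cannot be told apart.

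Markers of immune cells were also unequal between libraries, and the lists did not all peak in the same library. The neutrophil and monocyte markers summed to 12.03 CPM in 84Q replicate 3 and to 1.47 to 7.18 CPM in the others. In 84Q replicate 3 Ngp stood at 5.42 and S100a9 at 3.08 CPM, while Ly6g, which marks neutrophils, had 5 reads over all 9 libraries. Of the 6 tested markers of this list, 4 stood below 0 in 84Q versus 15Q. The perivascular macrophage markers summed to 5.24 CPM in 84Q replicate 3 and were highest, at 16.1 CPM, in 15Q replicate 3. The microglial markers, all 12 detected in every library, had their highest sum, 305 CPM, in 84Q replicate 1 and stood at 250 CPM in 84Q replicate 3. Over the groups the sum ran from 205 to 252 CPM in 15Q, from 250 to 305 in 84Q and from 221 to 235 in 84Q+IGF-1. By group, 11 of 12 had an estimate above 0 in 84Q versus 15Q, with a median log2 fold change of 0.22 and 2 of them at an adjusted p under 0.1 in edgeR, 7 of 12 stood above 0 in 84Q+IGF-1 versus 15Q, with a median of 0.04, all 12 stood below 0 in 84Q+IGF-1 versus 84Q, with a median of -0.20, and 11 of 12 stood above 0 with all 6 expanded libraries, with a median of 0.12. Of the 43 members, 29 stood above 0 in 84Q versus 15Q (49.7% of all genes) and 35 below 0 in 84Q+IGF-1 versus 15Q (51.1%). In 84Q+IGF-1 versus 84Q 41 stood below 0 (51.2%), and with all 6 expanded libraries 21 stood above 0 (49.2%). The 8 oligodendrocyte markers summed to 4073 to 4379 CPM in 15Q, 4017 to 5056 in 84Q and 3076 to 4040 in 84Q+IGF-1, lowest in 84Q+IGF-1 replicate 1, the library in which most members were lowest. Endothelial markers varied little, from 267 to 298 CPM. The markers of T, NK and B cells summed to 26.2 CPM in 15Q replicate 3, mostly from the antibody chain Igkc, and to 2.34 to 4.73 CPM elsewhere, and Cd3d and Ms4a1 had no read in 3 libraries each. The part of these cells in the members' levels was not tested.

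**Figure D5:**
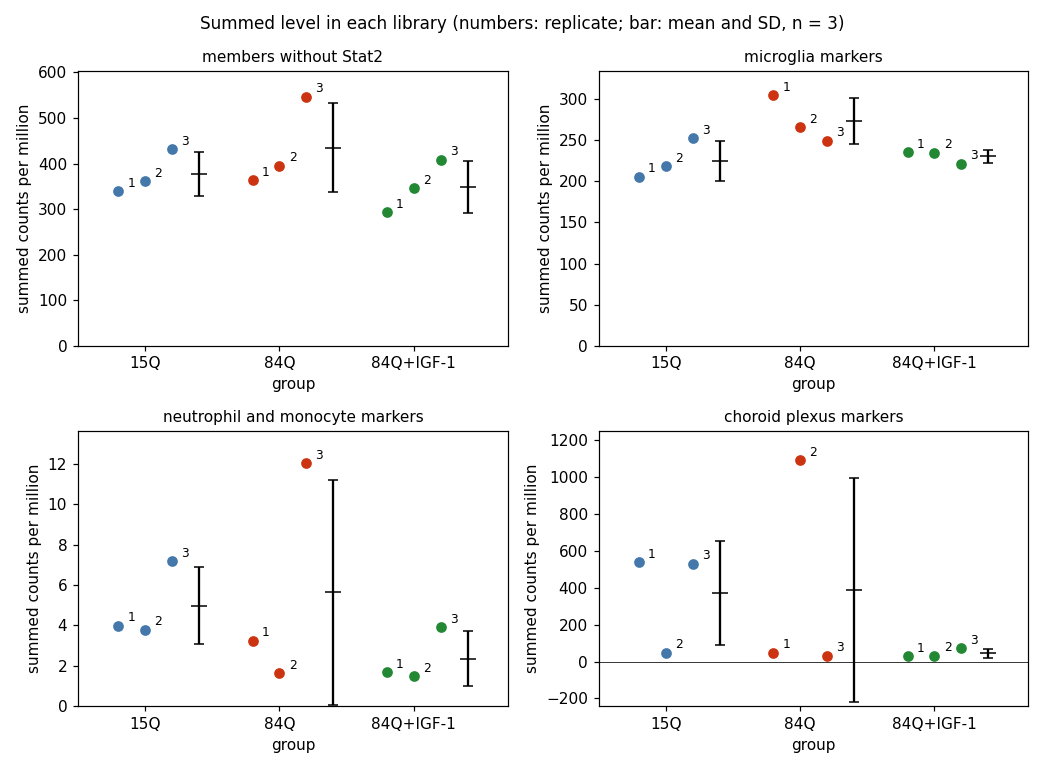
Summed level in CPM in each library for the members without Stat2, the microglial, the neutrophil and monocyte and the choroid plexus markers, with points for the 3 libraries of a group, numbered by replicate, and bars for mean and SD. The members and the neutrophil and monocyte markers share their highest library, 84Q replicate 3, whereas the microglial sum peaks in 84Q replicate 1 and the choroid plexus sum in 84Q replicate 2.

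Directions over the list depended on these libraries. In 84Q versus 15Q 29 of 43 members had an estimate above 0 (49.7% of all genes), with a median log2 fold change of 0.11. Without 84Q replicate 3 the median was -0.04 and 15 members stood above 0. Of the marker lists, the microglial (11 of 12), oligodendrocyte (6 of 8, median 0.19) and Purkinje cell markers (6 of 8, median 0.08) stood mostly above 0 there, and every other list mostly below. In 84Q+IGF-1 versus 15Q 35 members stood below 0 (51.1% of all genes), with a median of -0.15, which was -0.04 without 84Q+IGF-1 replicate 1 and -0.04 without 15Q replicate 3. Of the marker lists, the meningeal markers also stood below 0 there (10 of 10 tested, median -1.05, 6 called). So did the intestinal (7 of 7, median -6.35, 6 called) and most muscle markers (6 of 7, median -3.23, 6 called). The neutrophil and monocyte (6 of 6, median -1.25, 1 called) and perivascular macrophage markers (4 of 4, median -1.04, 1 called) did as well. Without a call, the choroid plexus (12 of 12, median -3.63) and red cell markers (5 of 5, median -1.19) also stood below 0. Mostly below 0 and uncalled were the astrocyte and Bergmann glia markers (6 of 8, median -0.26). The endothelial (6 of 8, median -0.05) and oligodendrocyte markers (5 of 8, median -0.09) were likewise mostly below 0 and uncalled. The granule cell markers were evenly split, and the microglial (7 of 12), Purkinje cell (6 of 8) and T, NK and B cell markers (3 of 5) stood mostly above 0. In 84Q+IGF-1 versus 84Q 41 of 43 members stood below 0 (51.2% of all genes), all but Cmpk2 at 0.01 and Cxcl10 at 0.16, with a median of -0.25. That median was -0.08 without 84Q replicate 3, -0.10 without 84Q+IGF-1 replicate 1 and 0.02 without both, when 20 of 43 members stood below 0. In the same comparison all 12 microglial (median -0.20), 8 oligodendrocyte (median -0.24), 12 choroid plexus (median -3.26), 10 meningeal (median -0.34) and 5 red cell markers tested (median -0.11) stood below 0, as did 5 of 6 neutrophil and monocyte (median -1.54), 3 of 4 perivascular macrophage, 5 of 7 muscle, 5 of 8 endothelial (median -0.03) and 7 of 8 astrocyte and Bergmann glia markers (median -0.03). The intestinal, granule cell, Purkinje cell and T, NK and B cell markers stood mostly above 0. At an unadjusted p under 0.05 and lower were 3 microglial, 5 oligodendrocyte, 9 choroid plexus and 1 each of the meningeal and endothelial markers. At the same mark 1 muscle marker was higher, and none of these had an adjusted p under 0.1 in edgeR. The part of these cells and tissues in the members' shifts was not tested. With all 6 expanded libraries against 15Q, 21 members stood above 0 (49.2% of all genes) and 22 below, with a median of -0.01.

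Few members separated the groups completely. All 84Q libraries lay above all 15Q libraries for Cmpk2 and Xaf1 (11.9% of all genes) and below them for Ifi44 (13.5%). All 84Q+IGF-1 libraries lay below all 15Q libraries for Sp100, Eif2ak2, Iigp1, Ifi44 and Trim30a (13% of all genes) and above them for no member (11.7%). Against 84Q they lay below for Eif2ak2, Bst2, Lgals3bp and Xaf1 (4.5% of all genes). Ifi44 was the sole member below all 15Q libraries in all 6 expanded libraries (6.37% of all genes).

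The transcription factors of the list carry the interferon signal to the genome. Stat2 (ENSMUSG00000040033.16, chromosome 10, 128270559 to 128292849), the STAT protein that marks ISGF3, stood at 190, 182 and 200 CPM in the 15Q libraries, 187, 202 and 200 in the 84Q libraries and 202, 183 and 183 in the 84Q+IGF-1 libraries. It varied only 1.11-fold between the lowest and the highest library, with a log2 fold change of 0.05 ± 0.06 (SE) in 84Q versus 15Q. Irf9 (ENSMUSG00000002325.15, chromosome 14, 55603571 to 55610030), its DNA-binding partner, stood at 17.9, 23.0 and 25.3 CPM in the 15Q libraries, 23.0, 26.5 and 41.0 in the 84Q libraries and 23.5, 24.9 and 25.8 in the 84Q+IGF-1 libraries. The 84Q replicate 3 value lay far above all others, and the groups overlapped, since 15Q replicate 3 exceeded 84Q replicate 1. In 84Q versus 15Q its log2 fold change was 0.44 ± 0.18 (SE; edgeR adjusted p = 0.223), and without 84Q replicate 1 it was 0.60 with an adjusted p of 0.0982, past both thresholds. Without 84Q replicate 3 it was 0.16, with an adjusted p of 0.659. Irf9 overlaps Rnf31 on the same strand, so its count may hold reads of that gene.

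Irf1 (ENSMUSG00000018899.16, chromosome 11, 53770014 to 53778374), a factor induced by interferon gamma in particular, stood at 3.38, 4.92 and 5.34 CPM in the 15Q libraries, 4.48, 3.82 and 3.14 in the 84Q libraries and 2.83, 3.24 and 3.46 in the 84Q+IGF-1 libraries. The 2 highest values were 15Q libraries, the lowest was 84Q+IGF-1 replicate 1, and the first 15Q library lay among the treated ones. In 84Q+IGF-1 versus 15Q Irf1 had a log2 fold change of -0.53 ± 0.19 (SE; edgeR adjusted p = 0.189), which became -0.68 with an adjusted p of 0.0859 without 15Q replicate 1 and -0.39 with 0.530 without 15Q replicate 3. Irf7, which amplifies type I interferon production, ran from 4.76 CPM in 84Q+IGF-1 replicate 1 to 13.6 CPM in 84Q replicate 3, and Sp100, a nuclear body protein, from 6.82 to 10.6 CPM.

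Among the sensors, no member was among the 6 with the smallest p in a comparison. Ddx58 (RIG-I), Ifih1 (MDA5) and Dhx58 (LGP2) detect viral RNA in the cytosol, and Zbp1 binds left-handed nucleic acid. Their mean levels lay between 1.62 TPM for Zbp1 and 6.36 TPM for Ddx58, and their log2 fold changes between -0.08 and 0.17 in 84Q versus 15Q and between -0.43 and -0.03 in 84Q+IGF-1 versus 84Q.

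The 10 effectors that act on RNA or nucleotides held the members with the widest range between libraries. Ifit3 (ENSMUSG00000074896.3, chromosome 19, 34583531 to 34588731), of a family that binds foreign RNA, stood at 25.02, 32.6 and 42.8 CPM in the 15Q libraries, 27.8, 39.1 and 60.7 in the 84Q libraries and 19.9, 29.4 and 35.9 in the 84Q+IGF-1 libraries. Ifit3b (ENSMUSG00000062488.9, chromosome 19, 34607970 to 34613401), its neighbouring copy, stood at 16.1, 16.9 and 22.4 CPM in the 15Q libraries, 16.5, 20.1 and 38.2 in the 84Q libraries and 12.9, 15.7 and 23.3 in the 84Q+IGF-1 libraries. In both, 84Q replicate 3 was the highest and 84Q+IGF-1 replicate 1 the lowest library, about 3-fold apart, and all groups overlapped. Between 84Q+IGF-1 and 84Q the log2 fold changes were -0.57 ± 0.28 for Ifit3 and -0.51 ± 0.29 for Ifit3b (SE; edgeR adjusted p = 0.969 for both). Without 84Q replicate 3 they were -0.23 and -0.07, and without 84Q+IGF-1 replicate 1 they were -0.37 and -0.34. The pair shares 61.8% of the 31-base words of Ifit3, so the split of reads between them is uncertain. Ifit1 had the widest span of the list, from 4.55 to 15.6 CPM or 3.42-fold, with its ends in the same libraries, and Ifit2 ran from 7.68 to 13.1 CPM.

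Cmpk2 (ENSMUSG00000020638.8, chromosome 12, 26469204 to 26479837), a mitochondrial nucleotide kinase that supplies the antiviral enzyme Rsad2, was lowest of the 9 libraries in 15Q replicate 3. It stood at 15.8, 14.6 and 13.0 CPM in the 15Q libraries, 15.8, 17.3 and 20.4 in the 84Q libraries and 19.1, 15.6 and 19.0 in the 84Q+IGF-1 libraries. Every 84Q library lay above every 15Q library, if by little at the margin, and among the treated libraries only replicate 2 fell within the range of 15Q. Its log2 fold change was 0.31 ± 0.12 in 84Q versus 15Q (SE; edgeR adjusted p = 0.193), 0.31 ± 0.12 in 84Q+IGF-1 versus 15Q (edgeR adjusted p = 0.201) and 0.01 ± 0.12 in 84Q+IGF-1 versus 84Q. With all 6 expanded libraries it was 0.31 ± 0.10 (SE; edgeR adjusted p = 0.0920), the sole member with an adjusted p under 0.1 (10% of all genes), at less than the 1.5-fold change a call required. Rsad2, beside it on chromosome 12, had -0.16 ± 0.20 (SE) in the same comparison.

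Eif2ak2 (ENSMUSG00000024079.4, chromosome 17, 78852564 to 78882573), the kinase PKR that stops translation when it meets viral RNA, stood at 13.7, 14.3 and 18.4 CPM in the 15Q libraries, 13.4, 14.7 and 18.5 in the 84Q libraries and 10.4, 13.2 and 13.4 in the 84Q+IGF-1 libraries. The treated libraries were the 3 lowest, with 84Q replicate 1 and 15Q replicate 1 close above them. In 84Q+IGF-1 the log2 fold change was -0.33 ± 0.15 against 15Q (SE; edgeR adjusted p = 0.281) and -0.33 ± 0.15 against 84Q (edgeR adjusted p = 0.969). These became -0.18 without 15Q replicate 3 and -0.19 without 84Q replicate 3. Oas1a and Oas2, which make the oligoadenylates that activate RNase L, ran from 1.64 to 3.19 and from 3.90 to 7.13 CPM, and their relative Oasl2 from 9.82 to 24.97 CPM, all 3 highest in 84Q replicate 3. Oas1a shares 68.7% of its 31-base words with Oas1g and is uncertain.

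The 3 members of the Isg15 system were all highest in 84Q replicate 3. Isg15, the ubiquitin-like protein that the system attaches, ran from 1.12 CPM in 84Q+IGF-1 replicate 1 to 2.96 CPM in 84Q replicate 3, the ligase Herc6 from 2.27 to 4.45 CPM between the same libraries, and Usp18, which removes Isg15, from 1.49 CPM in 15Q replicate 1 to 3.93 CPM in 84Q replicate 3. Their log2 fold changes lay between 0.08 and 0.36 in 84Q versus 15Q and between -0.19 and -0.15 in 84Q+IGF-1 versus 84Q, none past the thresholds.

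The 9 dynamin-like and immunity-related GTPases include proteins that disrupt membranes around pathogens. Of the 9 estimates, 5 stood above 0 in 84Q versus 15Q, 2 in 84Q+IGF-1 versus 15Q and 0 in 84Q+IGF-1 versus 84Q. Iigp1 (ENSMUSG00000054072.12, chromosome 18, 60376027 to 60392634), an immunity-related GTPase, had the smallest p of the list in 84Q+IGF-1 versus 15Q. It stood at 3.27, 4.27 and 4.82 CPM in the 15Q libraries, 2.76, 3.52 and 3.65 in the 84Q libraries and 1.93, 2.33 and 3.19 in the 84Q+IGF-1 libraries. All treated libraries lay below all 15Q libraries, the highest of the treated just under the lowest of 15Q, and the 84Q libraries lay in between and overlapped both. The log2 fold change in 84Q+IGF-1 versus 15Q was -0.73 ± 0.21 (SE; 95% interval -1.20 to -0.27; edgeR adjusted p = 0.115), and DESeq2 gave -0.72 with an adjusted p of 0.0638, past both thresholds. Leaving out 1 library at a time, it lay between -0.96 without 84Q+IGF-1 replicate 3 and -0.58 without 84Q+IGF-1 replicate 1, with edgeR's adjusted p from 0.0596 to 0.372. With all 6 expanded libraries versus 15Q it was -0.53 ± 0.19 (SE; edgeR adjusted p = 0.131). Intestinal and meningeal markers were also higher in 15Q, with meningeal sums of 138 to 203 CPM against 70.9 to 121 CPM in the other libraries, and their part in this difference was not tested.

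Gbp7 (ENSMUSG00000040253.15, chromosome 3, 142530342 to 142550149), a guanylate-binding protein, stood at 7.06, 8.69 and 8.41 CPM in the 15Q libraries, 6.45, 7.30 and 6.50 in the 84Q libraries and 3.95, 6.48 and 7.13 in the 84Q+IGF-1 libraries. It was highest in 15Q replicates 2 and 3 and lowest in 84Q+IGF-1 replicate 1, while the groups overlapped at 84Q+IGF-1 replicate 3. Against 15Q the treated mice had a log2 fold change of -0.46 ± 0.18 (SE; edgeR adjusted p = 0.224), and -0.25 without 84Q+IGF-1 replicate 1. It overlaps Gm43802 on the same strand and shares 10.8% of its 31-base words with it, so its count is uncertain. Gbp6 (ENSMUSG00000104713.4, chromosome 5, 105270702 to 105293698), of another Gbp cluster, stood at 11.9, 8.47 and 13.3 CPM in the 15Q libraries, 10.7, 14.5 and 21.2 in the 84Q libraries and 12.7, 10.8 and 12.9 in the 84Q+IGF-1 libraries. Here 84Q replicate 3 was the highest and 15Q replicate 2 the lowest, and the log2 fold change in 84Q versus 15Q had the opposite sign, 0.45 ± 0.22 (SE; edgeR adjusted p = 0.294). Without 84Q replicate 3 it was 0.16 and without 15Q replicate 2 it was 0.28. Gbp6 shares 74.2% of its 31-base words with other genes, mainly the overlapping Gm43302, and is uncertain.

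Mx1 (ENSMUSG00000000386.16, chromosome 16, 97447035 to 97462907), a dynamin-like GTPase, stood at 1.12, 0.894 and 1.27 CPM in the 15Q libraries, 0.655, 0.615 and 1.14 in the 84Q libraries and 0.558, 0.678 and 0.994 in the 84Q+IGF-1 libraries. It was low throughout, with 13 to 74 reads per library, and the groups overlapped. On the log2 scale, the fold change of all 6 expanded libraries versus 15Q was -0.52 ± 0.25 (SE; edgeR adjusted p = 0.240). Gbp2 and Gbp3 ran from 2.96 to 6.65 and from 6.13 to 15.0 CPM, and Igtp, Irgm1 and Irgm2 from 3.75 to 5.59, from 10.7 to 18.5 and from 6.86 to 11.1 CPM, these 3 highest in 84Q replicate 3. Igtp and Irgm2 overlap on the same strand.

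Parp9 and Parp14, which add ADP-ribose to proteins, and Dtx3l, the ubiquitin ligase that pairs with Parp9, varied little. Their highest and lowest libraries differed by 1.42- to 1.77-fold, and their log2 fold changes lay between -0.24 and 0.01 in all 3 comparisons. Parp9 and Dtx3l overlap on opposite strands, and the strand setting of the counting is not stated in the sources used here.

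The secreted and membrane proteins held the 2 largest estimates between 84Q+IGF-1 and 84Q. Bst2 (ENSMUSG00000046718.8, chromosome 8, 71534255 to 71537456), or tetherin, which holds budding virus on the cell surface, stood at 3.42, 3.13 and 4.43 CPM in the 15Q libraries, 3.83, 5.19 and 5.30 in the 84Q libraries and 2.27, 3.69 and 3.08 in the 84Q+IGF-1 libraries. All treated libraries lay below all 84Q libraries, with 84Q replicate 1 and 84Q+IGF-1 replicate 2 close together, and 15Q overlapped both groups. Tested against 84Q, its log2 fold change was -0.65 ± 0.21 (SE; 95% interval -1.11 to -0.18; edgeR adjusted p = 0.969). Rtp4 (ENSMUSG00000033355.6, chromosome 16, 23520291 to 23614222), a chaperone of membrane receptors, stood at 3.05, 3.72 and 3.85 CPM in the 15Q libraries, 3.42, 4.53 and 5.76 in the 84Q libraries and 2.79, 3.43 and 2.74 in the 84Q+IGF-1 libraries. The first 84Q library lay just below the second treated library, so these groups overlapped, and the log2 fold change was -0.60 ± 0.20 (SE; edgeR adjusted p = 0.969). Rtp4 overlaps Gm45338 on the same strand, shares 12.5% of its 31-base words with it and overlaps Masp1 on the other strand, so its count is uncertain.

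Lgals3bp (ENSMUSG00000033880.11, chromosome 11, 118392751 to 118402092), a secreted glycoprotein that binds galectins, stood at 35.4, 27.8 and 42.5 CPM in the 15Q libraries, 36.8, 43.1 and 52.2 in the 84Q libraries and 31.9, 31.6 and 36.8 in the 84Q+IGF-1 libraries. All treated libraries lay below the lowest 84Q library, by less than 0.1 CPM in the closest pair, and 15Q spanned most of the range. Lgals3bp had log2 fold changes of -0.39 ± 0.15 in 84Q+IGF-1 versus 84Q (SE; edgeR adjusted p = 0.969) and 0.32 ± 0.15 in 84Q versus 15Q (edgeR adjusted p = 0.278). Without 84Q replicate 3 they were -0.26 and 0.18, and the second was 0.17 with 15Q replicate 2 omitted and 0.48 with 15Q replicate 3 omitted. Cxcl10, the chemokine that draws T cells, ran from 1.14 CPM in 84Q replicate 2 to 2.26 CPM in 84Q+IGF-1 replicate 3 and was 1 of the 2 members with an estimate above 0 in 84Q+IGF-1 versus 84Q.

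Of the remaining members, Ifi27 (ENSMUSG00000064215.13, chromosome 12, 103434211 to 103440239), a small mitochondrial protein, had the smallest p in 84Q versus 15Q. It stood at 12.4, 12.6 and 17.4 CPM in the 15Q libraries, 16.0, 21.3 and 24.6 in the 84Q libraries and 14.5, 15.4 and 20.1 in the 84Q+IGF-1 libraries. The highest 15Q library lay above the lowest 84Q library, so the groups overlapped, and the treated libraries overlapped both. The estimate for 84Q versus 15Q was a log2 fold change of 0.53 ± 0.18 (SE; 95% interval 0.14 to 0.92; edgeR adjusted p = 0.145), 0.69 with an adjusted p of 0.0690 without 84Q replicate 1, 0.39 with 0.415 without 84Q replicate 3, and 0.39 ± 0.17 with all 6 expanded libraries (edgeR adjusted p = 0.194).

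Xaf1 (ENSMUSG00000040483.15, chromosome 11, 72301629 to 72313733), which binds the caspase inhibitor XIAP, stood at 6.51, 6.16 and 7.20 CPM in the 15Q libraries, 8.90, 8.35 and 9.52 in the 84Q libraries and 4.50, 6.93 and 7.47 in the 84Q+IGF-1 libraries. The 84Q libraries were the 3 highest of the 9, and the treated libraries ran from below to just above the range of 15Q. Xaf1 had log2 fold changes of 0.43 ± 0.16 in 84Q versus 15Q (SE; edgeR adjusted p = 0.188) and -0.49 ± 0.17 in 84Q+IGF-1 versus 84Q (edgeR adjusted p = 0.969). Both differences rest on the same 3 libraries of 84Q, and the second was -0.31 without 84Q+IGF-1 replicate 1.

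Trim30a (ENSMUSG00000030921.17, chromosome 7, 104409025 to 104465193), a ubiquitin ligase that restrains inflammatory signaling, stood at 7.47, 7.10 and 8.33 CPM in the 15Q libraries, 7.11, 6.24 and 9.23 in the 84Q libraries and 4.16, 5.87 and 6.48 in the 84Q+IGF-1 libraries. The treated libraries lay below all 15Q libraries, and 84Q replicate 2 lay among them. Treated mice had log2 fold changes of -0.47 ± 0.18 against 15Q (SE; edgeR adjusted p = 0.203) and -0.44 ± 0.18 against 84Q (edgeR adjusted p = 0.969). Without 84Q+IGF-1 replicate 1 they were -0.31 and -0.28, and the second was -0.27 without 84Q replicate 3. Ifi35 ran from 1.15 to 2.68 CPM, highest in 84Q replicate 3, whereas Ifi44 ran from 0.855 to 1.42 CPM and had its lowest value in that library.

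The library pattern was also read for members with and without the ISRE letters, leaving out the 11 members without a promoter entry and with no test of a difference. Of the 16 with them, 11 were highest in 84Q replicate 3 and 11 lowest in 84Q+IGF-1 replicate 1, and of the 16 promoters without them, 11 and 10. Their median log2 fold changes were 0.13 and 0.05 in 84Q versus 15Q and -0.27 and -0.25 in 84Q+IGF-1 versus 84Q.

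The rest of the interferon pathway was read from 56 other genes with a row, 52 of them tested. Of 20 listed ligand genes 4 had a row, the others being not analysed here. Interferon gamma (Ifng) had 1 read in 1 library, Ifnk 2 reads in 1 library, Ifnab 2 reads in 1 library, and Ifnz 5 to 50 reads. At a floor of 3 reads per library no level of Ifng, Ifnk or Ifnab could be given. The 9 receptor and kinase genes were expressed evenly, with summed levels of 404 to 423 CPM, and none was called.

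None of these 52 genes was called in any of the 4 comparisons by edgeR, with 1 gene of the pathway list not reported here and left out of the counts. At an unadjusted p under 0.05 stood 3 higher and 2 lower in 84Q versus 15Q (9.04% and 10.4% of all genes), 6 higher and none lower in 84Q+IGF-1 versus 15Q (7.36% and 10.4%), 1 higher and 2 lower in 84Q+IGF-1 versus 84Q (1.83% and 2.84%) and 4 higher and 3 lower with all 6 expanded libraries (10.6% and 12%). DESeq2 called none of them.

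The pathway genes with the smallest p changed by less than 1.5-fold. In 84Q versus 15Q they were Rnaseh2a, the catalytic subunit of RNase H2, at 0.28 ± 0.08 (SE; edgeR adjusted p = 0.111), and Ifngr2, a chain of the interferon gamma receptor, at 0.20 ± 0.07 (edgeR adjusted p = 0.161). In the treated mice versus 15Q these were Rnaseh2a at 0.29 ± 0.08 (SE; edgeR adjusted p = 0.116), and the receptor kinase Tyk2 at 0.20 ± 0.06 (edgeR adjusted p = 0.140). In 84Q+IGF-1 versus 84Q they were Ifngr2 at -0.18 ± 0.07 (SE; edgeR adjusted p = 0.969), and Rnaseh2c at 0.24 ± 0.10 (edgeR adjusted p = 0.969). Rnaseh2a and the corepressor gene Irf2bp1 had adjusted p-values of 0.0410 and 0.0656 in edgeR with all 6 expanded libraries versus 15Q, at log2 fold changes of 0.28 ± 0.07 and 0.30 ± 0.09 (SE). The medians over the 52 genes were 0.03, -0.04 and -0.02 in the 3 comparisons, in the order 84Q versus 15Q, 84Q+IGF-1 versus 15Q and 84Q+IGF-1 versus 84Q.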

How the data were processed

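RNA of the cerebellum of 9 mice was sequenced with paired ends. The authors trimmed the reads (Trimmomatic 0.36), aligned them to the mouse genome (HISAT2 2.2.0, GRCm38.p6) and counted them on genes (featureCounts), and the deposited values are these unnormalized counts. The annotation and the strand setting are not given in the sources used here. Groups and replicate numbers came from the sample labels.

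Tests used edgeR 4.0.16 under R 4.3.3, after filterByExpr and TMM scaling, all 9 libraries sharing 1 quasi-likelihood fit. A separate fit took the 6 expanded libraries as 1 group. DESeq2 1.42.0 served as an alternative. The steps were tested on simulated data. TPM used exon lengths of GENCODE vM21. Depth per library bounds low genes at a floor of 3 counts.

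The members and lists were chosen with earlier results of these data known. Values per library were given for any called member, the 6 members with the smallest p per comparison and the 5 with the highest TPM, and of the pathway genes for each called gene, or else the 2 with the smallest p were named. Members given by their range alone, and Tlr4, stand outside this rule and were named after their values were seen. A gene of the pathway list is not reported here. Alternatives were other thresholds, filters, scaling, covariates, a replicate block and each library left out. Ttr as a covariate and the omission of 2 libraries together were added after the results were seen.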

Additional observations from a re-analysis of the deposited data

Results flagged for a closer look

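Dixon's ratio, the gap between an extreme library and its nearest neighbour as a share of the whole range, was computed over the 6 libraries with the expanded repeat for the 17 members whose values per library are given and for the summed level of the members. These 6 libraries mix untreated and treated mice, and the groups of 3 are too small for the ratio. Of the 18 ratios, 3 passed the 95% critical value. Chance passes about 1 in 20 single unselected groups, a rate that does not apply here, since the members were chosen from these libraries and share a pattern across them. Irf9 had a ratio of 0.807 for 84Q replicate 3, at 41.0 CPM with the next library at 26.5 CPM. Gbp6 had a ratio of 0.637 for the same library, at 21.2 CPM with the next at 14.5 CPM. Gbp7 had a ratio of 0.748 for 84Q+IGF-1 replicate 1, at 3.95 CPM with the next library at 6.45 CPM. The summed level had a ratio of 0.593 and did not pass.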

How the results depend on the processing

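In each of the 4 comparisons no member was called by edgeR. The alternatives gave the following exceptions. In 84Q versus 15Q the count ranged from 0 to 2 with 1 library left out, the 2 being Irf9 and Ifi27 without 84Q replicate 1. With 84Q+IGF-1 versus 15Q it ranged from 0 to 2, Iigp1 and Irf1 without 15Q replicate 1 (adjusted p = 0.0760 for Iigp1 in edgeR) and Iigp1 without 84Q+IGF-1 replicate 3. It was 1, Iigp1, by DESeq2, with no filter on low counts (adjusted p = 0.00985 in edgeR) and with a replicate block. With all 6 expanded libraries versus 15Q it ranged from 0 to 1, Iigp1 without 15Q replicate 1 or without 84Q replicate 2, and was 1, Cmpk2, with no fold change threshold. Between 84Q+IGF-1 and 84Q it was 0 under every alternative run. No other alternative gave a called member. With no filter the total degrees of freedom rose from 11.7 to 226896 in the fit of 3 groups, so that a gene's own spread hardly entered, and the standard error of Ifit3 fell by a factor of 3.17. At an adjusted p under 0.1 with any fold then stood 7, 8, 3 and 3 members, instead of 0, 0, 0 and 1, in 84Q versus 15Q, 84Q+IGF-1 versus 15Q, 84Q+IGF-1 versus 84Q and the pooled comparison. With the filter 4.8%, 3.67%, 0% and 10% of all genes passed this mark. No such share is given for the run without it, so those member counts are not set against a background. Of the 52 pathway genes reported, none was called in any comparison, and the count changed only with all 6 expanded libraries, to 2 (Rnaseh2a and Irf2bp1) with no fold change threshold and from 0 to 1 with 1 library left out, Tlr4 without 84Q+IGF-1 replicate 2 (adjusted p = 0.0904 in edgeR).

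The median log2 fold change in 84Q+IGF-1 versus 84Q ranged from -0.37 to -0.08 with 1 library left out and was 0.016 without both 84Q replicate 3 and 84Q+IGF-1 replicate 1. The log2 fold change of Ifit3b in that comparison, -0.51, lay between -0.79 and -0.07 with 1 library left out and reversed to 0.098 without both. The median over the members ranged in 84Q versus 15Q from -0.04 to 0.22, in 84Q+IGF-1 versus 15Q from -0.26 to -0.04 and with all 6 expanded libraries from -0.10 to 0.10. The summed levels without Stat2 were 377, 435 and 349 CPM in 15Q, 84Q and 84Q+IGF-1.

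Over all tested genes, replicate numbers did not pair the samples: deviations from the group means of same-numbered libraries correlated at -0.37 to 0.11. Among the members, the median deviation and the summed level rose from replicate 1 to replicate 3 in every group. Whether the replicate number marks anything shared between the groups was not tested. With the replicate number as a block the counts of called members were 0 in 84Q versus 15Q, 1 in 84Q+IGF-1 versus 15Q (Iigp1, log2 fold change -0.74, adjusted p = 0.0718 in edgeR), 0 in 84Q+IGF-1 versus 84Q and 0 with all 6 expanded libraries, and the genes called in all were 242, 271, 0 and 487 in the same order. No other call of a named member changed with the block.

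The genes called in all, from which the background shares come, were 414, 435, 0 and 672 in 84Q versus 15Q, 84Q+IGF-1 versus 15Q, 84Q+IGF-1 versus 84Q and all 6 expanded libraries versus 15Q. They were 243, 281, 0 and 446 at an adjusted p under 0.05, 928, 711, 0 and 1944 with no fold change threshold, 521, 588, 6 and 846 by DESeq2, 1025, 1284, 168 and 1235 with no filter on low counts, 277, 328, 0 and 416 with Xist and 332, 259, 0 and 422 with Ttr as a covariate, and with 1 library left out they ranged from 184 to 551, 226 to 629, 0 to 9 and 278 to 819. With 3 mice per group, the 95% interval of most members held a 1.5-fold change in each comparison between 2 groups, and of a minority with the 6 expanded libraries pooled, so an uncalled member is not shown to be unchanged.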
